A study of Rattus norvegicus with 9 samples.

Results

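The mouse-style symbols Zfp600 to Zfp999 mostly mark C2H2 zinc finger genes, a large family of DNA-binding proteins. A gene was counted as a member when its symbol was Zfp followed by a 3-digit number of at least 600 and nothing else, and 160 of the 23953 genes in the count table met this rule. The rule used names only and no measured value, and 12 symbols in the same range that end in a letter were left out. RNA-seq libraries of neural stem cells (NSCs) were compared in 3 groups of 3 libraries. The labels describe cells from rat spinal cords, and the study isolated them from neonatal rats. The Con group was kept in differentiation medium alone, and the Exo group received in addition exosomes from mesenchymal stem cells of bone marrow (BMSC-Exos), taken from donor cells with an empty lentiviral vector. In the pLV-Exo-Wnt5a group the added exosomes came from BMSCs that a lentiviral vector made to overexpress Wnt5a. Both kinds of exosome thus came from transduced donor cells and differ in the Wnt5a insert, and the methods describe transduction of BMSCs only. All libraries carry 1 batch label, and the sources do not say when RNA was taken or whether replicates were separate cultures or animals, so p-values measure only the spread between these libraries. The Exo group against the Con group (called the exosome comparison) asks what BMSC-Exos do to the NSCs. The pLV-Exo-Wnt5a group against the Exo group (the Wnt5a comparison) asks what overexpression of Wnt5a in the donor cells adds. The pLV-Exo-Wnt5a group against the Con group (the joint comparison) takes both together.

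C2H2 zinc finger proteins read DNA through tandem zinc fingers, each of which contacts a few bases. Many members also carry a KRAB domain, which recruits the corepressor Trim28 (KAP1) with the histone methyltransferase Setdb1 and heterochromatin proteins, and KRAB zinc finger proteins are best known for silencing retrotransposons. Their genes lie in fast-evolving clusters, are transcribed at low levels in most tissues, and differ in number between mouse and rat. Members without a KRAB domain include regulators of neural development such as Zfp609. In the table's own annotation, 143 of the 160 members belong to the zf-C2H2 family and 120 carry the term nucleus. The KEGG column of the table puts 86 members in the pathway Herpes simplex virus 1 infection, where KEGG lists KRAB zinc finger genes, and gives the other 74 no pathway. That list is incomplete, since Zfp932, a KRAB gene, is outside it. It is used below as a working split, which was made after the data had been seen.

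Promoter sequences from RefSeq (rat, GRCr8; 250 bases before to 50 after the annotated start) were found by symbol for 79 members, whereas the rows carry mouse gene numbers, and the sequences that reads were assigned to are not given in the sources used here. Those of 3 members that head a ranking are shown. Zfp931 had the smallest p in the exosome comparison, Zfp719 the smallest p in the Wnt5a comparison, and Zfp777 the most reads of the KEGG-listed members. They lie at chr3:185085346-185085645 on the + strand, chr1:103146269-103146568 on the + strand and chr4:78373509-78373808 on the - strand. Each is written 5′ to 3′ along its gene, and capitals mark the motifs found on either strand.
Zfp931: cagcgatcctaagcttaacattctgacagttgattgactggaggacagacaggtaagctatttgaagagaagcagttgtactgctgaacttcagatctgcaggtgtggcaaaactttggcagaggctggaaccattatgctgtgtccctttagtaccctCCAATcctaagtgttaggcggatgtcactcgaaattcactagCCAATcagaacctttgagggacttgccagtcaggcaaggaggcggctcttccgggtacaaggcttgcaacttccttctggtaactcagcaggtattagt
Zfp719: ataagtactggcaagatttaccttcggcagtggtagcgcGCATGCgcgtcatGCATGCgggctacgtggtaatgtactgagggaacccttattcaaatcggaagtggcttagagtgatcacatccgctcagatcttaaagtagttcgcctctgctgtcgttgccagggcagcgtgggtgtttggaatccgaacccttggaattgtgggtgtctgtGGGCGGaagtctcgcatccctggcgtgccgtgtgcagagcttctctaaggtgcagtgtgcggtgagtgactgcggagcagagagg
Zfp777: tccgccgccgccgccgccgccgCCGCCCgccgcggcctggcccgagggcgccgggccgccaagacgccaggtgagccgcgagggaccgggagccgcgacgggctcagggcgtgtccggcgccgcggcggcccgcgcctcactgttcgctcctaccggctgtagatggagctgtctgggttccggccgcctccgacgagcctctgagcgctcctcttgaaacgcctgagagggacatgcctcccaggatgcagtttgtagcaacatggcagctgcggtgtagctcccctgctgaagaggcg
The Zfp931 window holds 2 CCAAT boxes (CCAAT) that begin 91 and 49 bases before the start, and 5 CpG dinucleotides. The Zfp719 window holds GCATGC, the core of the NRF1 motif, 211 and 198 bases before the start, a GC box (GGGCGG) 35 bases before it, and 19 CpG dinucleotides. The Zfp777 window is the richest in CpG of the 3, with 40, and holds a GC box on the opposite strand 228 bases before the start. Across the 79 members, 50.6% of windows held a CCAAT box against 37.7% of the 27457 promoters of the same length, 35.4% held a GC box against 34.9%, 11.4% held GCATGC against 7.34%, and 10.1% held a TATA box (TATAAA) against 14.3%. The letters ACTACA, part of the motif of ZNF143, stood in 24.1% of member windows against 10.9% of all. The median window held 13 CpG in members and 7 in all promoters. Both strands were searched, these motifs share no overlap in the 3 windows, and a match describes letters only.

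Members lay beside another member more often than coding genes at large did. On the rat annotation, 22 of 96 protein-coding members (22.9%) had another member as nearest coding neighbour on either side, against 0.795% of all coding genes, and 54 (56.2%) lay next to a zinc finger gene, against 3.21%. Among KEGG-listed members the latter share was 40 of 51 (78.4%), and among the others 14 of 45 (31.1%). The longest run was Zfp866, Zfp869, Zfp964 and Zfp868, and Zfp719 lies between Zfp658 and Zfp819. A rat gene was found under the same symbol for 97 members and under a synonym for 7, which leaves 56 without one. Those 56 include Zfp740 and Zfp651, among the members with the most reads, and how reads shared by near-identical members were assigned is not given in the sources used here. Values of close paralogs are therefore uncertain.

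Total counts ran from 32765138 to 40427647 per library, so that 3 counts, the limit a count of 0 allows, stood at 0.0742 to 0.0916 CPM (counts scaled to a common library size). Such limits take in counting error alone. Replicates differed beyond counting noise (chi-square divided by its degrees of freedom from 7.33 for Con replicates 2 and 3 to 48.4 for Con replicates 1 and 3). Con replicate 1 lay far from the rest of its group by this measure. In the member values it and Exo replicate 1 stood apart from the other 7 libraries, and the medians are also given without them. Against the spinal cord label, 7 of 20 caudal Hox genes were in the table and none of the 7 passed 3 counts in any library, whereas 12 forebrain genes summed to between 710 and 880 CPM. Neural stem cell markers summed to between 3154 and 4608 CPM, astrocyte markers to between 11334 and 14102, neuron markers to between 3483 and 4415, oligodendrocyte markers to between 2582 and 3271, mesenchymal markers to between 187 and 219 and proliferation genes to between 185 and 275. In bulk RNA, fewer cells of a type and less RNA per cell cannot be told apart.

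Most members were weakly expressed, and reads were concentrated in a few. The mean level over the 9 libraries ran from 0.00275 to 226 CPM with a median of 2.12. Below 1 CPM lay 59 members, between 1 and 10 CPM lay 54, and at 10 CPM or more lay 47. CPM is not divided by gene length, so it ranks members by reads collected and not by transcript number. The expression filter over all 9 libraries kept 122 members, and the other 38 had means of at most 0.206 CPM, with 10 of them at 3 counts or fewer in every library. KEGG-listed members were the weaker class, with a median of 1.78 CPM and a maximum of 62.9 against a median of 3.74 and a maximum of 226 in the others. Of all member reads, the 10 strongest members took 49.7% to 53.9% in each library.

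The family as a whole took nearly the same share of each library, from 0.270% to 0.284% of counts. Summed over the 160 members, the level was 2868, 2840 and 2806 CPM in the Con replicates, 2828, 2730 and 2712 CPM in the Exo replicates, and 2710, 2732 and 2765 CPM in the pLV-Exo-Wnt5a replicates. The group means were 2838 ± 31.2, 2757 ± 62.7 and 2736 ± 27.7 CPM (SD, n = 3 each). Exo replicate 1 lay within the Con range, and the Exo and pLV-Exo-Wnt5a groups overlapped. The summed level of the KEGG-listed members was 508 ± 14.6, 531 ± 24.1 and 500 ± 8.67 CPM in the same order, and that of the others 2330 ± 45.8, 2226 ± 39.0 and 2236 ± 22.8 CPM. The order of the group means thus differed between the weaker and the stronger class of members.

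A sum follows the strongest genes, so the shift of the typical member was measured as its log2 CPM minus its own mean over the 9 libraries, and the median was taken over the 122 members that passed the filter, 21 of them below 1 CPM. That median was -0.20, 0.02 and 0.05 in Con replicates 1, 2 and 3. It was 0.24, 0.06 and -0.01 in Exo replicates 1, 2 and 3, and -0.01, -0.05 and -0.00 in the pLV-Exo-Wnt5a replicates. Con replicate 1 was the lowest library and Exo replicate 1 the highest, with the other 7 within 0.06 of 0. Over all 15458 genes the same median stayed between -0.01 and 0.02. The SD of the member median between replicates was 0.135 in the Con group, 0.128 in the Exo group and 0.0227 in the pLV-Exo-Wnt5a group, so the spread within the Con and Exo groups was nearly as large as the distance between their means of -0.05 and 0.09.

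**Figure D1:**
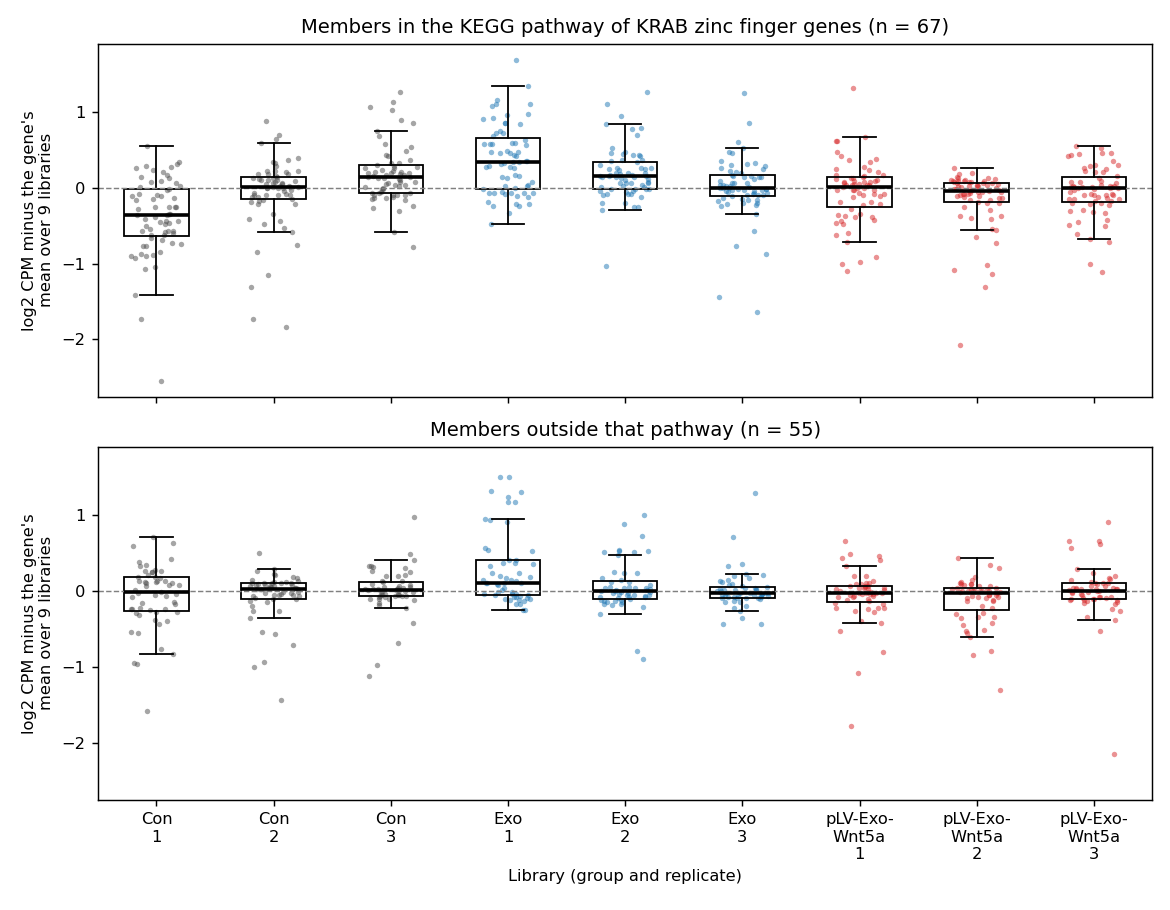
Each point is 1 member in 1 library, as log2 CPM minus the member's mean over the 9 libraries, with boxes for the quartiles, a bar for the median and whiskers to the last point within 1.5 times the box height; grey is Con, blue Exo and red pLV-Exo-Wnt5a. The 67 KEGG-listed members (top) have medians of -0.36 in Con replicate 1 and 0.34 in Exo replicate 1, whereas the 55 others (bottom) stay between -0.03 and 0.10.

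The library shift was also read by class and by level. In KEGG-listed members the median was -0.36, 0.01 and 0.14 in the Con replicates, 0.34, 0.15 and -0.01 in the Exo replicates, and 0.01, -0.05 and -0.00 in the pLV-Exo-Wnt5a replicates. For the other members it was -0.01, 0.02 and 0.01, then 0.10, -0.00 and -0.03, then -0.03, -0.03 and -0.00. Con replicate 1 was the lowest of the 9 libraries for 44 of the 122 members (36.1%, against 29.5% of all genes), and Exo replicate 1 the highest for 44 as well (36.1%, against 19.4%). Con replicate 1 was also the highest library for 25 members (20.5%, against 26.0% of all genes). Of these, 22 were among the 47 members at 10 CPM or more. Levels differ between the classes, and at 1 to 10 CPM the 37 KEGG-listed members had -0.54 in Con replicate 1 and 0.42 in Exo replicate 1, against -0.25 and 0.52 in the 17 others. At this level the shift in Exo replicate 1 was thus not the larger one in KEGG-listed members.

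At 1 to 10 CPM, the median of 54 members was -0.40 in Con replicate 1 and 0.42 in Exo replicate 1, against -0.17 and 0.13 for the 3769 genes of all kinds at that level. All genes at this level thus moved the same way in these libraries, by less than the members. At 10 CPM or more, 47 members had 0.10 in Con replicate 1 and -0.02 in Exo replicate 1, against 0.04 and -0.01 for all genes, so both went the other way at this level. The 78 cytosolic ribosomal protein genes had 0.28 in Con replicate 1 and between -0.11 and 0.07 elsewhere. The neuron markers, 13 of 13 detected, had -0.54 in Con replicate 1 and between -0.07 and 0.26 elsewhere, and nuclear-retained RNAs had their lowest value in Con replicate 1 too (-0.26, 7 genes). The 13 proliferation genes had 0.23, -0.13 and -0.29 in Exo replicates 1, 2 and 3. They had 0.28 in Con replicate 1 and reached 0.36 in pLV-Exo-Wnt5a replicate 3. The part of these in the shift of the zinc finger genes was not tested.

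**Figure D2:**
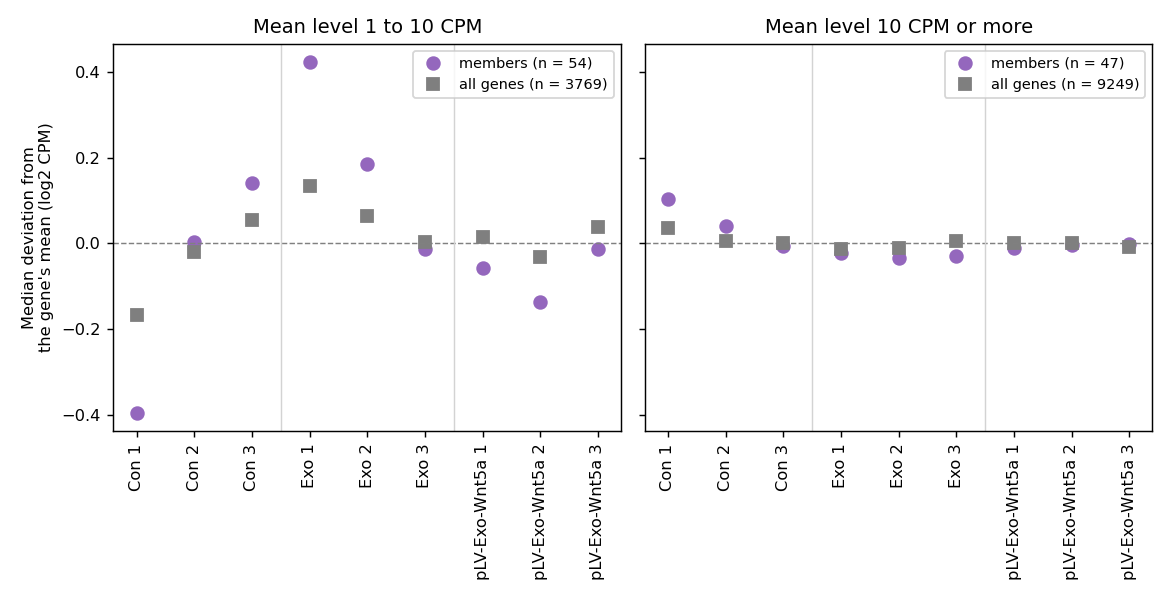
Median of log2 CPM minus each gene's own mean, by library, for members (circles) and all genes (squares) in 2 classes of mean level. Members at 1 to 10 CPM reach -0.40 in Con replicate 1 and 0.42 in Exo replicate 1, all genes at that level -0.17 and 0.13, and members at 10 CPM or more stay between -0.03 and 0.10.

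Single members varied between replicates according to their level. The median within-group SD of log2 CPM was 0.360 in members at 1 to 10 CPM and 0.114 at 10 CPM or more, against 0.292 and 0.117 for all genes at the same levels. Of the 122 members, the steadiest was Zfp629 (SD 0.0300), with 104 to 123 CPM in the 9 libraries. The least steady was Zfp619 (SD 1.23), with 0 counts in Con replicate 1 and 0.152 to 0.578 CPM in the others.

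In the exosome comparison, members at 1 to 10 CPM were mostly higher with BMSC-Exos, and no member passed the adjusted edgeR test. The median log2 fold change (log2FC) of the 122 tested members was 0.15, with 83 higher and 39 lower, against a median of 0.00 and 50.3% higher among the 15070 genes tested. KEGG-listed members had a median of 0.21 with 53 of 67 higher, and the others 0.03 with 30 of 55 higher. All 54 members at 1 to 10 CPM and all 47 at 10 CPM or more were tested, but below 1 CPM only 21 of 59 were. A weak gene can pass the filter through the group where it is high, so no median is given for that level, and the medians over all tested members carry the same limit. Zfp948, at 0.271 CPM, passed in both comparisons with the Exo group and not in the joint comparison. With no filter on low counts the median of 159 members was 0.15. At 1 to 10 CPM it was 0.26 with 44 of 54 higher (81.5%), against 0.10 and 61.7% of all genes at that level. There the 37 KEGG-listed members had 0.24 and the 17 others 0.31. At 10 CPM or more it was -0.07 with 21 of 47 higher (44.7%), against -0.03 and 44.7% of all genes. Single libraries moved these medians. The family median was 0.03 without Con replicate 1, 0.08 without Exo replicate 1 and -0.00 (60 of 121 higher) without both. In the same order it was 0.07, 0.11 and 0.01 in KEGG-listed members, 0.01, -0.05 and -0.01 in the others, 0.08, 0.14 and 0.01 at 1 to 10 CPM, and -0.02, -0.07 and -0.04 at 10 CPM or more. Without Con replicate 3 it was larger instead, at 0.41 in KEGG-listed members, 0.07 in the others and 0.45 at 1 to 10 CPM. In the members outside the KEGG list it was also 0.05 without Exo replicate 2 and 0.09 without Exo replicate 3.

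**Figure D3:**
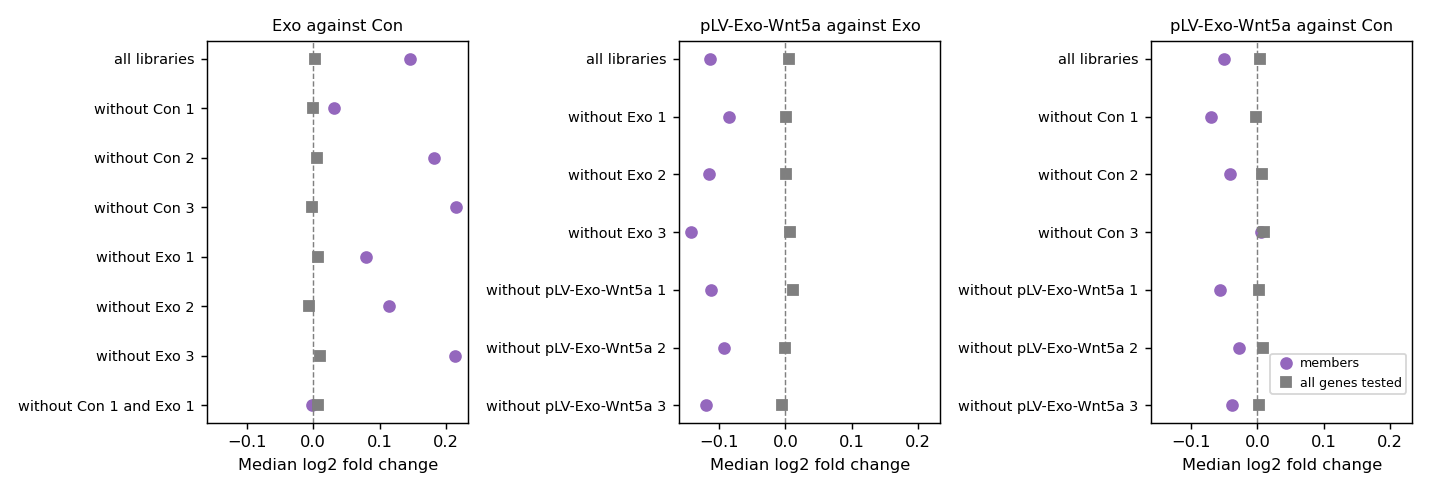
Median log2FC of the members (circles) and of all genes tested (squares) with all libraries and with the named library left out, for each comparison. In the exosome comparison the member median falls from 0.15 to -0.00 when Con replicate 1 and Exo replicate 1 are both left out, whereas in the Wnt5a comparison it stays between -0.14 and -0.09.

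With edgeR's quasi-likelihood test, 0 of the 122 members had an adjusted p (Q, Benjamini-Hochberg over all genes tested) under 0.05 in the exosome comparison, where 0.00664% of all genes did, and the smallest Q was 0.265. At an unadjusted p under 0.05 stood 15 members (12.3%), near the 14.9% of all genes. Of these, 9 were higher (background 8.92%) and 6 lower (background 6.01%). All 6 lower members were at 10 CPM or more, and of the 9 higher ones 6 were at 1 to 10 CPM and 1 above, where of all genes 732 of the 905 lower and 904 of the 1344 higher ones were at 10 CPM or more. The count of 15 was 7 without Exo replicate 1 (8.68% of all genes), 9 without Con replicate 2 (10.8%) and 29 without Con replicate 3 (23.4%). In 27 members (22.1%) the groups did not overlap, against 23.3% of all genes. DESeq2 had 15 members at an unadjusted p under 0.05 (background 14.3%) and 1 at Q under 0.05, Zfp931 (background 1.4%). It gave no Q to 31 of the 122 members, among them all 21 below 1 CPM.

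Zfp931 had 1.01, 1.05 and 1.61 CPM in the Con replicates, 5.04, 2.53 and 1.95 CPM in the Exo replicates, and 2.40, 0.957 and 1.60 CPM in the pLV-Exo-Wnt5a replicates. Every Exo library was above every Con library, with Exo replicate 1 far above the rest. Its log2FC was 1.36 (standard error 0.375, Q = 0.265 from edgeR, and Q = 0.0407 from DESeq2), and 0.87 to 1.63 with any library left out. Zfp971 followed the same order, with 1.04, 1.57 and 1.4 CPM in the Con replicates and 4.32, 2.01 and 2.43 CPM in the Exo replicates (log2FC 1.11, standard error 0.328, edgeR Q = 0.265). Zfp944 had 1.25, 1.26 and 2.16 CPM against 3.93, 2.80 and 2.40 CPM (log2FC 0.96, edgeR Q = 0.265). These 3 genes shared Exo replicate 1 as their highest library. Zfp605 (0.438 ± 0.201 against 0.982 ± 0.282 CPM, SD, n = 3 each) and Zfp961 (2.63 ± 1.06 against 4.27 ± 0.336 CPM) had log2FC of 1.16 and 0.70, with edgeR Q values of 0.294 and 0.297, and both are KEGG-listed. In edgeR fits with 1 library left out, Zfp931, Zfp971 and Zfp944 kept an unadjusted p under 0.05 in 6 of 6, Zfp605 in 3 and Zfp961 in 2.

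The 6 lower members at an unadjusted p under 0.05 were strongly expressed and differed by little. Zfp687, whose protein works in a complex with Zmynd8, had 144, 131 and 124 CPM in the Con replicates and 113, 109 and 113 CPM in the Exo replicates (log2FC -0.26, standard error 0.0819, edgeR Q = 0.265). Zfp740, which binds G-rich DNA and took the most reads of all members, had 254, 242 and 234 CPM against 227, 205 and 210 CPM (log2FC -0.19, edgeR Q = 0.293). In both, no Exo library reached the lowest Con library. Zfp629 went from 121 ± 2.52 to 107 ± 2.95 CPM (log2FC -0.17, edgeR Q = 0.302) and Zfp777, the KEGG-listed member with the most reads, from 68.3 ± 6.47 to 58.6 ± 3.81 CPM (log2FC -0.23, edgeR Q = 0.320). Zfp692 (36.3 ± 2.59 against 31.2 ± 0.577 CPM) and Zfp628 (37.2 ± 3.01 against 31.3 ± 3.00 CPM) had log2FC of -0.23 and -0.26, with edgeR Q values of 0.321 and 0.330. In edgeR fits with 1 library left out, Zfp687 kept an unadjusted p under 0.05 in 6 of 6 and Zfp740 in 3. Zfp692 and Zfp628 kept it in 2, and Zfp629 and Zfp777 in 1. Ribosomal protein genes were lower in the same comparison, with a median log2FC of -0.18 and 77 of 78 lower. Neural stem cell markers (9 of 10) and oligodendrocyte markers (8 of 10) were mostly lower too, with medians of -0.15 and -0.14. Of 13 neuron markers, 8 were higher at an edgeR p under 0.05 (61.5%, against 8.92% of all genes), with a median log2FC of 0.30. Whether these bear on the zinc finger genes was not tested.

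**Figure D4:**
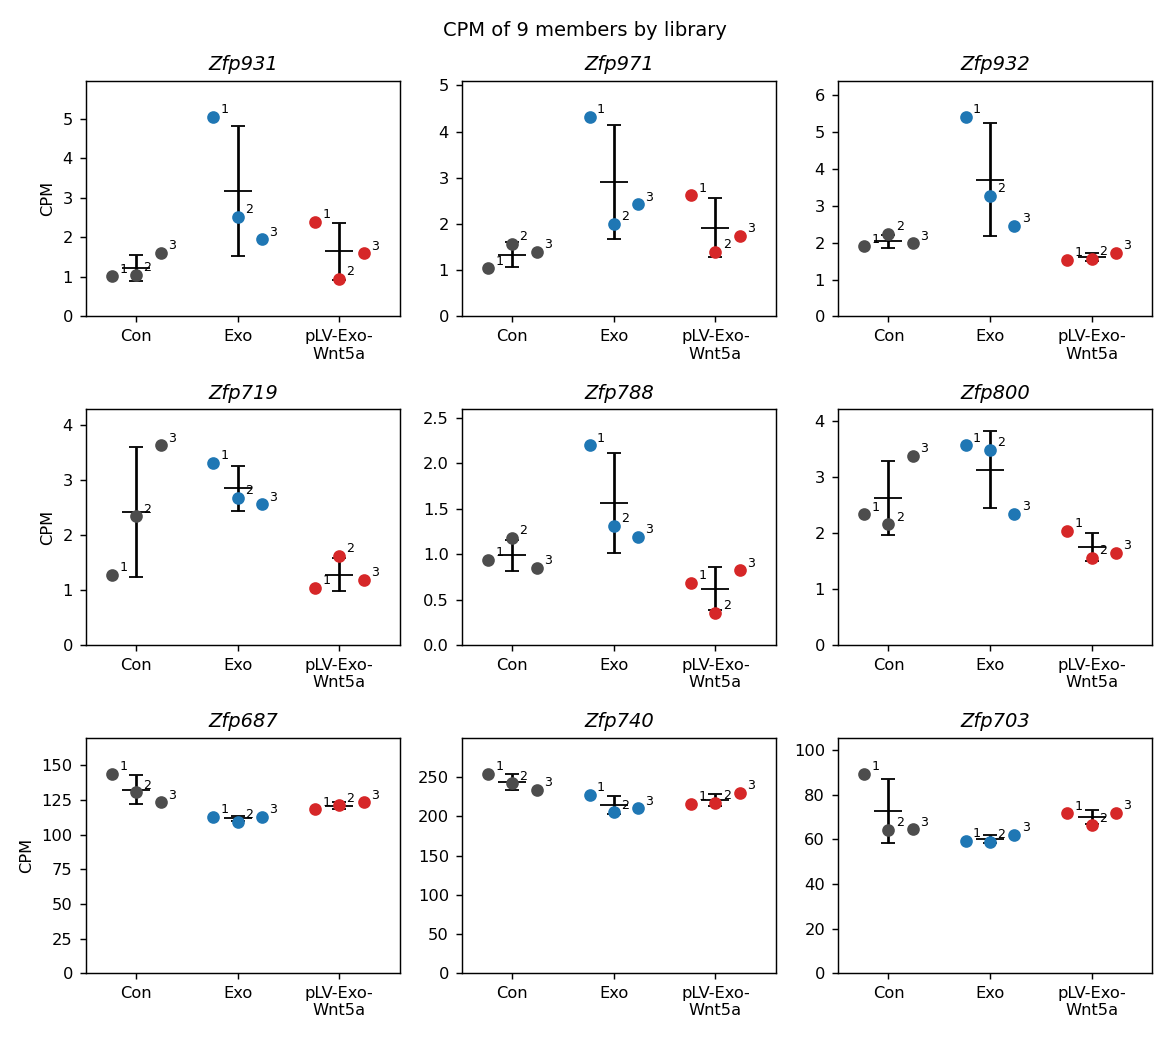
CPM of 9 members by library, numbered by replicate, with the group mean (bar) and SD (whiskers, n = 3); each panel starts at 0 and has its own scale. Zfp931, Zfp971 and Zfp932 have their highest value in Exo replicate 1, Zfp719, Zfp788 and Zfp800 are lowest in the pLV-Exo-Wnt5a group, and Zfp687, Zfp740 and Zfp703 differ by small steps at high level.

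In the Wnt5a comparison, members at 1 to 10 CPM were mostly lower with exosomes of Wnt5a-overexpressing BMSCs. The median log2FC of the 121 tested members was -0.11, with 84 lower and 37 higher, against 0.00 and 51.4% higher among 15132 genes. It was -0.17 in KEGG-listed members (51 of 66 lower) and -0.07 in the others (33 of 55 lower). With no filter on low counts it was -0.13 over 159 members. At 1 to 10 CPM it was -0.23 with 9 of 54 higher (16.7%), against -0.05 and 43.2% of all genes at that level. There the 37 KEGG-listed members had -0.17 and the 17 others -0.47. At 10 CPM or more it was 0.01 with 26 of 47 higher (55.3%), against 0.01 and 55.3% of all genes. Both comparisons share the Exo libraries, so a high Exo library raises one and lowers the other. Without Exo replicate 1 the family median was -0.09, the median at 1 to 10 CPM -0.18 (42 of 54 lower), that of KEGG-listed members -0.11 and that of the others -0.01. The median of the others was -0.03 without pLV-Exo-Wnt5a replicate 1 and likewise without replicate 2. Larger shifts came without Exo replicate 3, at -0.29 in KEGG-listed members, and without pLV-Exo-Wnt5a replicate 3, at -0.39 for 1 to 10 CPM. At 10 CPM or more the median was -0.00 without Exo replicate 2. Microglia and macrophage markers went the other way in both comparisons. All 14 were above 3 counts in some library, and their summed level ran from 71.2 to 75.3 CPM over the Con libraries, from 56.7 to 64.2 over the Exo libraries and from 67.2 to 69.6 over the pLV-Exo-Wnt5a libraries. Of the 11 tested, 10 were lower in the exosome comparison (median log2FC -0.50, 5 or 45.5% at an unadjusted p under 0.05, against 14.9% of all genes). In the Wnt5a comparison 9 were higher (median 0.65, again 45.5% at this threshold, against 12% of all genes). Of 11 astrocyte markers, 7 were lower in the Wnt5a comparison (median -0.15), with 2 higher and 4 lower at this threshold (54.5%, against 12% of all genes), while their summed level was higher (11783 ± 400.5 against 13042 ± 82.0 CPM). The part of either list in the values of the zinc finger genes was not tested.

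No member had Q under 0.05 in edgeR (0 of 121, background 0.436%), and the smallest Q was 0.0950. At an unadjusted p under 0.05 stood 17 members (14%, background 12%), 3 higher (background 5.07%) and 14 lower (background 6.91%). Without Exo replicate 1 this count was 6 (8.55% of all genes), without Exo replicate 2 it was 11 (8.67%), without Exo replicate 3 it was 25 (13.4%) and without pLV-Exo-Wnt5a replicate 2 it was 9 (9.39%). The 3 higher members were all at 10 CPM or more and 12 of the 14 lower ones at 1 to 10 CPM, where of all genes 510 of the 767 higher and 610 of the 1045 lower ones were at 10 CPM or more. At 1 to 10 CPM, 12 of 54 members (22.2%) were at this threshold, against 14.6% of all genes at that level. Groups did not overlap in 18 members (14.9%), against 16.4% of all genes. With DESeq2, 19 members had an unadjusted p under 0.05 (background 12.4%) and 2 had Q under 0.05, Zfp719 and Zfp932 (background 2.72%).

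Zfp719 had 3.31, 2.67 and 2.55 CPM in the Exo replicates and 1.03, 1.61 and 1.19 CPM in the pLV-Exo-Wnt5a replicates, after 1.27, 2.34 and 3.62 CPM in the Con replicates. The pLV-Exo-Wnt5a libraries lay below every Exo library, while the Con libraries spanned both. Its log2FC was -1.14 (standard error 0.260, Q = 0.0950 from edgeR, and Q = 0.00506 from DESeq2), and -1.34 to -1.01 with any library left out. Zfp932, a KRAB protein that represses endogenous retroviruses, had 1.89, 2.23 and 1.98 CPM in the Con replicates, 5.40, 3.27 and 2.45 CPM in the Exo replicates and 1.54, 1.56 and 1.72 CPM in the pLV-Exo-Wnt5a replicates. Its 3 groups were all separate, with Exo highest. Its log2FC was -1.19 in the Wnt5a comparison (standard error 0.292, Q = 0.119 from edgeR, and Q = 0.00971 from DESeq2) and 0.85 in the exosome comparison (edgeR Q = 0.277), and -0.83 and 0.49 at the smallest when a library was left out.

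Zfp800, a factor of pancreatic endocrine development, had 3.57, 3.49 and 2.35 CPM in the Exo replicates and 2.04, 1.56 and 1.65 CPM in the pLV-Exo-Wnt5a replicates (log2FC -0.83, edgeR Q = 0.199). Zfp788 had 2.20, 1.31 and 1.19 CPM against 0.682, 0.356 and 0.824 CPM (log2FC -1.31, edgeR Q = 0.218). Neither pair of groups overlapped. Zfp974 (1.48 ± 0.555 against 0.787 ± 0.158 CPM) and Zfp970 (1.36 ± 0.455 against 0.725 ± 0.175 CPM) both had a log2FC of -0.89, with edgeR Q values of 0.361 and 0.371. In the other direction stood Zfp703, a nuclear co-repressor, with 59.3, 58.9 and 62.0 CPM in the Exo replicates and 71.6, 66.3 and 72.0 CPM in the pLV-Exo-Wnt5a replicates (log2FC 0.23, edgeR Q = 0.174). Its Con values of 89.3, 64.2 and 64.4 CPM spanned the pLV-Exo-Wnt5a values. Zfp865 (57.3 ± 2.80 against 63.7 ± 1.66 CPM) and Zfp687 (112 ± 2.04 against 121 ± 2.61 CPM) had log2FC of 0.16 and 0.13, with edgeR Q values of 0.355 and 0.390. In edgeR fits with 1 library left out, Zfp800, Zfp788 and Zfp703 kept an unadjusted p under 0.05 in 6 of 6. Zfp974 and Zfp970 kept it in 3, Zfp865 in 2 and Zfp687 in 0.

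**Figure D5:**
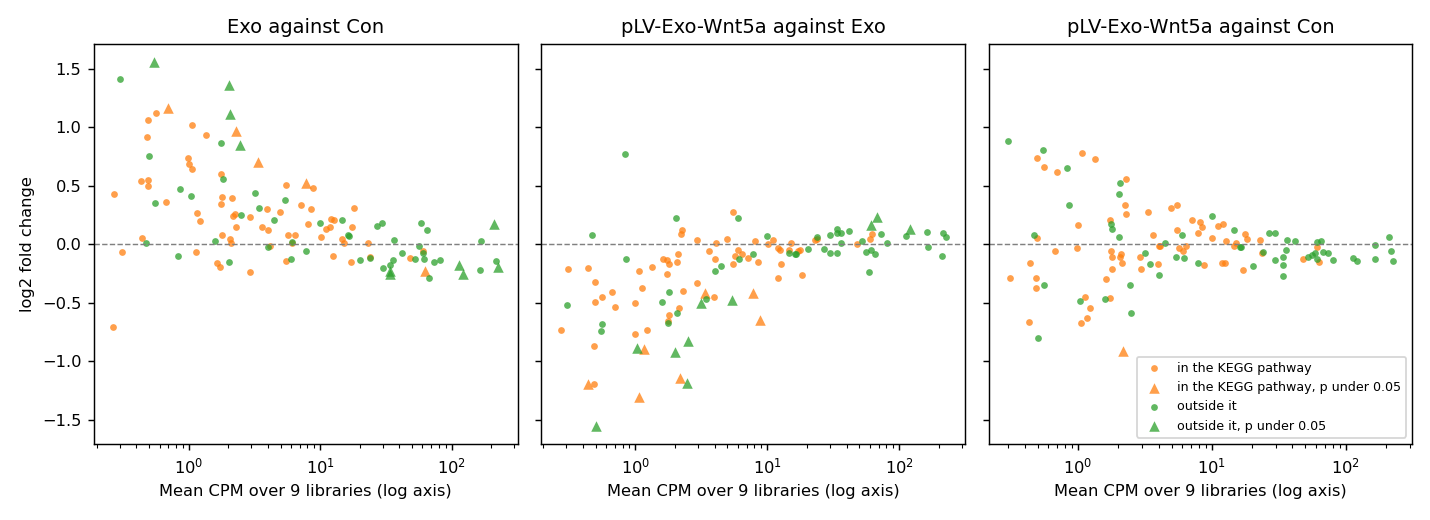
log2FC of each tested member against its mean CPM over the 9 libraries (log axis) in the 3 comparisons, orange for KEGG-listed members and green for the others, triangles for an unadjusted p under 0.05 in edgeR. Triangles below 10 CPM lie above 0 in the exosome comparison (left) and below 0 in the Wnt5a comparison (middle), and 1 member has a triangle in the joint comparison (right).

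In the joint comparison the family hardly differed. The median log2FC of the 120 tested members was -0.05, with 49 higher and 71 lower, against 0.00 and 50.8% higher among 15089 genes, and it was -0.02 in KEGG-listed members and -0.06 in the others. In edgeR, 0 members had Q under 0.05 (background 0.0862%), and 1 member, Zfp719, had an unadjusted p under 0.05 (0.833%, background 8.35%). It was lower, where 4.15% of all genes were lower and 4.2% higher at this threshold. DESeq2 had 2 members, Zfp719 and Zfp787, at an unadjusted p under 0.05 (background 8.18%) and 0 at Q under 0.05 (background 0.477%). Zfp719 had a log2FC of -0.91 (standard error 0.373, edgeR Q = 0.573), with overlapping groups. The groups did not overlap in 15 members (12.5%, background 17.1%). The count at an unadjusted p under 0.05 was 6 with Con replicate 1 left out (9.3% of all genes), 3 with Con replicate 2 (6.13%), 5 with Con replicate 3 (14.4%) and 2 with pLV-Exo-Wnt5a replicate 3 left out (7.61%). Leaving out Con replicate 3 also moved the family median to 0.01 and that of KEGG-listed members to 0.04 (39 of 66 higher). Without Con replicate 1 the KEGG-listed median was -0.10. The median of the others was -0.03 in each of these 2 fits.

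Of the 21 members with a listed function that passed the filter, 0 had Q under 0.05 in edgeR in any comparison (background 0.00664%, 0.436% and 0.0862% in the exosome, Wnt5a and joint comparisons). With DESeq2 1 did, Zfp932 in the Wnt5a comparison (background 2.72%). Zfp609, a partner of Nipbl and Integrator in neural progenitors, had 232, 227 and 218 CPM in the Con replicates, 203, 196 and 218 CPM in the Exo replicates and 218, 222 and 214 CPM in the pLV-Exo-Wnt5a replicates, and its edgeR Q was 0.366 in the exosome comparison. Zfp706, a small protein that limits self-renewal of embryonic stem cells, had higher values in the Exo group (226 ± 8.35 against 199 ± 10.5 CPM, log2FC 0.17, edgeR Q = 0.321). Also among the 10 members with the most reads were Zfp664 (167 CPM), Zfp651 (164 CPM), Zfp646 (81.0 CPM) and Zfp821 (73.5 CPM), with log2FC in the exosome comparison of 0.03, -0.22, -0.13 and -0.15 and edgeR Q values from 0.357 to 0.905. Zfp622, which acts in maturation of the large ribosomal subunit, had 63.5 ± 7.12, 60.8 ± 2.77 and 58.4 ± 2.12 CPM in the 3 groups (Con first, pLV-Exo-Wnt5a last), and Zfp830, a pre-mRNA processing factor, 13.6 ± 1.25, 15.8 ± 0.673 and 14.9 ± 0.432 CPM. Zfp668, a DNA repair factor, was at 42.0 ± 2.36, 40.3 ± 0.896 and 43.1 ± 2.46 CPM. None of these 3 had an edgeR Q under 0.425 in any comparison.

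The other members with a known function ranged widely in level. Zfp644, a partner of the methyltransferases G9a and GLP, had 1.52 ± 0.240, 2.23 ± 0.626 and 1.67 ± 0.261 CPM in the 3 groups in the same order. Zfp711, an X-linked partner of Phf8, had 0.389, 0.180 and 0.822 CPM in the Con replicates, 1.06, 0.767 and 0.505 CPM in the Exo replicates and 0.202, 0.547 and 0.0485 CPM in the pLV-Exo-Wnt5a replicates, the lowest of which is 2 counts. Its log2FC of -1.55 in the Wnt5a comparison (standard error 0.658, edgeR Q = 0.383) came with overlapping groups. Zfp809, a KRAB protein that silences murine retroviruses, had 1.26 ± 0.128, 1.21 ± 0.391 and 0.923 ± 0.166 CPM. Zfp638, which also acts in retroviral silencing, had 1.72 ± 0.648, 1.77 ± 0.468 and 1.25 ± 0.0632 CPM. Zfp618, which binds 5-hydroxymethylcytosine, and the repressors Zfp652 and Zfp653 stayed between 13.7 and 28.3 CPM in every library. Zfp639, a transcription factor, had 25.2 ± 4.84, 28.2 ± 4.61 and 27.1 ± 1.09 CPM, and Zfp655, a Vav-interacting protein, 4.21 ± 1.01, 4.89 ± 1.23 and 4.25 ± 0.929 CPM. Zfp704 was stronger, with 57.0 ± 16.5, 64.8 ± 11.3 and 54.4 ± 7.24 CPM, and its groups overlapped in every comparison (log2FC -0.24 and edgeR Q = 0.523 in the Wnt5a comparison).

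The cofactors through which KRAB proteins act were all detected. Their 28 genes summed to 4655 ± 34.2, 4521 ± 26.2 and 4648 ± 81.9 CPM in the 3 groups, Con first. Trim28 had 574, 480 and 461 CPM in the Con replicates, 441, 446 and 457 CPM in the Exo replicates and 472, 476 and 443 CPM in the pLV-Exo-Wnt5a replicates (log2FC in the exosome comparison -0.18, edgeR Q = 0.374). Setdb1 had 91.2 to 114 CPM over the 9 libraries. Cbx3, a heterochromatin protein, had 26.7, 34.5 and 37.6 CPM in the Con replicates and 58.8, 44.0 and 45.6 CPM in the Exo replicates (log2FC 0.58, edgeR Q = 0.265). The median log2FC of the list was -0.03, 0.05 and 0.05 in the exosome, Wnt5a and joint comparisons. At an unadjusted p under 0.05 stood 3 higher and 4 lower, 3 higher and 1 lower, and 0 higher and 2 lower genes in that order. These are 25%, 14.3% and 7.14% of the list, against 14.9%, 12% and 8.35% of all genes. With edgeR 0 had Q under 0.05, and with DESeq2 1 did, Cbx3 in the exosome comparison (Q = 0.0285), where 0.00664% of all genes had Q under 0.05 in edgeR and 1.4% in DESeq2.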

How the data were processed

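RNA-seq of 9 NSC libraries was analysed (n = 3 per group). The values deposited by the authors are raw integer counts of each gene. The study names HISAT2 for alignment and DESeq2 for testing, whereas the submitters' processing notes name Bowtie2 and RSEM; the build is not given in the sources used here. Genes carry mouse symbols, mouse NCBI gene numbers and mouse pathways although the cells are labelled rat, so rat promoters and neighbours were joined by symbol.

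For each comparison, filterByExpr chose the genes on its 6 libraries, TMM scaled them, and edgeR 4.0.16 (R 4.3.3) gave quasi-likelihood p-values; Q is the Benjamini-Hochberg value over all genes tested. The standard error was taken from the test statistic. CPM used TMM over 9 libraries, and log2 CPM a prior count of 2. DESeq2 1.42.0, other normalizations and filters, the replicate block and leaving out each library were alternatives. On simulated data for Exo against Con (14873 genes), edgeR recovered 99.5% of 200 genes changed by a log2FC of 2, with 4 false calls, and a member shift of 0.3 as 0.297. The changed genes were drawn from those above 1 CPM. Genes were simulated independently, with no shift that members share within single libraries. The simulation therefore does not show how precisely a family shift is measured in the real libraries. Totals of 32765138 to 40427647 counts limit members below about 0.0742 CPM.

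Named members were those with Q under 0.05, up to 6 per comparison and direction with the smallest p under 0.05 and separate groups, the 10 with the highest CPM, and those with a listed function that passed the expression filter. Members and lists were chosen with earlier results of these data known.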

Additional observations from a re-analysis of the deposited data

How the results depend on the processing

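The direction of the family shift did not depend on scaling or filter, but its size, and its sign near 0, depended on single libraries, and counts of members depended on several settings. Over 8 other settings per comparison that kept all libraries, the family median log2FC changed by less than the pooled SD of library medians between replicates (0.108). It ran from 0.12 to 0.17 for the exosome comparison, -0.13 to -0.08 for the Wnt5a comparison and -0.05 to -0.02 for the joint comparison. That limit is wide, being close in size to the Wnt5a median (-0.11) and larger than the joint one (-0.05). The 36 values under other settings of the library medians (other prior counts, totals only, at least 10 counts) also changed by less than this limit. With 1 library left out, the medians ran from 0.031 to 0.22, -0.14 to -0.09 and -0.07 to 0.01. Without both Con replicate 1 and Exo replicate 1, chosen after seeing the data, the first was -0.0017 and 6 members stood at an unadjusted p under 0.05 (13.9% of all genes). With 1 library left out, that count ran from 7 to 29 (29 without Con replicate 3, 9 without Con replicate 2, 7 without Exo replicate 1) for the exosome comparison, from 6 to 25 for the Wnt5a comparison and from 1 to 6 for the joint comparison, against 15, 17 and 1. edgeR on all 9 libraries gave 11 for the Wnt5a comparison (7.41% of all genes) and 3 for the joint comparison (10.9%). For the latter, DESeq2 gave 2 (8.18%), no filter gave 4 (8.15%) and totals without a composition factor gave 0 (8.62%). At Q under 0.05, DESeq2 called 1 member for the exosome comparison (1.4% of all genes) and 2 for the Wnt5a comparison (2.72%). edgeR without a filter called 2 (Zfp931, Zfp971; 1.93% of all genes) and 2 (Zfp719, Zfp932; 1.71%), and without Exo replicate 3 it called 1, Zfp871 (Q = 0.0459; 0.62% of all genes), named after its values were seen; leaving out any library called 0 for the comparisons with Con. The causes were not tested.

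Deviations of same-numbered libraries correlated between -0.20 and 0.06 over all genes and between -0.32 and 0.18 over members. With 3 libraries per group, such values cannot settle whether same-numbered libraries were paired. With the replicate block, 9 members stood at an unadjusted p under 0.05 for the exosome comparison (9.4% of all genes), and the block changed no other count by over 1.5 times. Depth limits the weakest members, where 38 of 160 were not tested in the common filter.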

Other observations

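Other zinc finger families were read in the same fits, as values only. The lower-numbered Zfp genes (digits only, 174, 176 and 171 tested in the 3 comparisons) had a median log2FC of 0.06 for the exosome comparison, -0.05 for the Wnt5a comparison and -0.04 for the joint comparison. Zinc finger genes of the same KEGG pathway outside Zfp600 to Zfp999 had 0.16 (79 of 107 higher), -0.14 (79 of 110 lower) and -0.00, close to the 0.21, -0.17 and -0.02 of the KEGG-listed members. Their library median was -0.29 in Con replicate 1 and 0.20 in Exo replicate 1. Zbtb genes, which pair zinc fingers with a BTB domain (41 tested), had -0.01, -0.01 and 0.05, and Zscan and Zkscan genes, which carry a SCAN domain (21 tested), had -0.03, -0.05 and -0.03.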
